A study of Mus musculus with 10 samples.

Results

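The genes described here are 8 components of caveolae and of the diaphragms that span endothelial openings, taken by name from the 26228 genes of the tables. They are the caveolins *Cav1* and *Cav2*, the cavins *Ptrf*, *Sdpr* and *Prkcdbp*, the neck proteins *Ehd2* and *Ehd4*, and the diaphragm protein *Plvap*. *Ptrf*, *Sdpr* and *Prkcdbp* are the older symbols of *Cavin1*, *Cavin2* and *Cavin3*. All 8 were detected and passed the filter on low counts in every fit.

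Endothelial cells (ECs) were sorted from femur and tibia of C57BL/6 mice carrying Cdh5-mTnG, a reporter in which regulatory sequence of the endothelial cadherin gene *Cdh5* drives a membrane-bound red and a nuclear green fluorescent protein, and single-cell RNA sequencing was done on droplet libraries. All 5 groups carried the reporter and had 2 libraries each: juvenile (3 weeks, both sexes), adult (12 weeks, female), aged (75 weeks, female), and female mice of 12 weeks given parathyroid hormone (PTH), which builds bone when given intermittently, or alendronate, a bisphosphonate that inhibits bone-resorbing osteoclasts. Cells of several mice were pooled and each experiment was done once, so a difference between replicate libraries does not measure variation among mice. Sex cannot be told apart from age in the juvenile comparison. Treatments were compared with the untreated adult libraries.

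The 10 libraries held between 10653583 and 28419323 UMIs (unique molecular identifiers, counted once per captured RNA molecule), with a median of 3075 to 5149 UMIs per cell. After filtering and removal of 2571 cells that were not endothelial, 43712 ECs remained. Clustering without the 8 genes gave 4 classes that were compared, each named from fixed markers: 14368 sinusoidal-like, 4082 metaphyseal-like, 4541 arterial-like and 3100 type R-like cells, the last resembling the post-arterial capillaries around trabecular bone. A further 530 cells were proliferating-like, 413 formed a cluster named erythroid from its markers, and 16678 stayed unnamed. The erythroid-named cells were kept among the ECs and enter the levels over all ECs. At least 6 of the 7 type R-like markers were detected in the type R-like cells of every library, and all markers of the other 3 classes were detected in theirs. Type R-like cells were the shallowest, with a median of 2077 UMIs against 3978 in sinusoidal-like cells. They were the fewest of the 4 over all libraries together, though not in every library, with 34 to 700 per library. The 5 myofibre markers summed to 0 to 38.2 per 1000000 UMIs in type R-like and to at most 10.0 in the other 3 classes, and their part in the results was not tested. The aged libraries alone listed 276 genes whose symbols begin with the letter U (1.52 to 1.53% of their UMIs), which were left out. These libraries therefore differ from the others in more than age, and the causes cannot be told apart. The version of the droplet kit, and whether 1 version and 1 annotation served all libraries, is not given in the sources used here.

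Caveolae are flask-shaped pits of the plasma membrane that carry cargo, buffer membrane tension and hold signalling proteins. Caveolins insert into the membrane, cavins assemble around them as an outer coat, and EHD ATPases sit at the neck and restrain the pit. PLVAP forms the radial fibrils of the diaphragms that close fenestrae, transendothelial channels and the mouths of endothelial caveolae. Capillaries of muscle, fat and lung are rich in caveolae, whereas the sinusoids of bone marrow are open vessels through which blood cells pass.

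*Cav1*, the caveolin that endothelial caveolae require, rose stepwise from sinusoidal-like through metaphyseal-like and arterial-like to type R-like cells. Levels are UMIs of the gene per 1000000 UMIs of a class in a library (CPM), given as mean ± SD over the 10 libraries. The totals of the classes are those of the genes tested, scaled by TMM size factors. Levels in clusters, in haematopoietic cells and over all ECs, and marker sums, use plain totals, so the scales differ. *Cav1* stood at 37.0 ± 18.3 CPM in sinusoidal-like cells (lowest 9.48, median 38.2, highest 62.4). It reached 259 ± 59.6 CPM in metaphyseal-like cells (163, 261 and 340.0) and 976 ± 150.3 CPM in arterial-like cells (728, 964 and 1172). In type R-like cells it was 2834 ± 373 CPM (2239, 2944 and 3220). No library of one class overlapped with any library of the next. The log2 fold change (log2FC, here with its standard error) of type R-like over arterial-like cells was 1.53 ± 0.16 (adjusted p = 3.87e-10, edgeR quasi-likelihood test with library as a block), that of arterial-like over metaphyseal-like cells 1.96 ± 0.17, and that of metaphyseal-like over sinusoidal-like cells 2.89 ± 0.18. The study used *Cav1* as a marker of these vessels, so its order is not independent evidence. The test measures the spread between libraries for classes drawn from the same cells.

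*Cav2*, which forms hetero-oligomers with caveolin-1, followed the same order. Its mean was 76.3 ± 18.6 CPM in sinusoidal-like, 247 ± 59.1 in metaphyseal-like, 641 ± 130.9 in arterial-like and 1280 ± 280 CPM in type R-like cells. The lowest type R-like library (902 CPM) lay above the highest arterial-like library (746 CPM). Type R-like over arterial-like cells gave a log2FC of 1.01 ± 0.11 (adjusted p = 1.59e-10), just past the 2-fold limit for a call, and 8 alternatives put it just below that limit, among them those without either adult library, without either or both aged libraries and without the second alendronate library (lowest 0.94). The genes are neighbours on chromosome 6 (GRCm38), with *Cav2* at 17281185 to 17289115 and *Cav1* at 17306335 to 17341452 on the same strand, 17219 bases apart.

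The promoters of the caveolins and of *Sdpr*, a cavin gene, are shown as examples of coat genes that were highest in type R-like cells, as *Ptrf* and *Ehd2* also were. Each run is the 250 bases before the RefSeq start site (GRCm38.p6), 5′ to 3′ on the gene's strand, with capitals marking motif matches. RefSeq entries were found for 6 of the 8 genes, and the first listed start is shown. *Cav1* (chr6:17306085-17306334, plus strand), *Cav2* (chr6:17280935-17281184, plus) and *Sdpr* (chr1:51288876-51289125, plus) read as follows.
Cav1: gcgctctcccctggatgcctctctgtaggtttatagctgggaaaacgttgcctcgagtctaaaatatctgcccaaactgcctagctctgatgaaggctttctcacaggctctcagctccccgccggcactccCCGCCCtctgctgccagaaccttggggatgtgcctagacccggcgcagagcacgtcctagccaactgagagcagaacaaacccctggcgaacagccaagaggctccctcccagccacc
Cav2: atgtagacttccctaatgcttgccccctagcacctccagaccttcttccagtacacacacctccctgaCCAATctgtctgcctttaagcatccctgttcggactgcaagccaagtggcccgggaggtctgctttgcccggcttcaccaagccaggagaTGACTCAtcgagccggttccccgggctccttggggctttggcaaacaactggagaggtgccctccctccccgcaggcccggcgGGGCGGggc
Sdpr: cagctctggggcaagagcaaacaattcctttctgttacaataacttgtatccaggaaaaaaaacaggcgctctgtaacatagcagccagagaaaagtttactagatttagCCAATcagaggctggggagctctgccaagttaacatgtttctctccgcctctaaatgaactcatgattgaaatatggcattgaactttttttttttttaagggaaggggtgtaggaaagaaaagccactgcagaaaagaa
The motifs searched, on both strands, were the CCAAT box (CCAAT), the GC box (GGGCGG), and the core letters of ETS (AGGAAG), AP-1 (TGACTCA) and FOX (TGTTTAC) sites. *Cav1* held a GC box beginning 118 bases before the start site. *Cav2* held a CCAAT box at 182, an AP-1 match at 92 and a GC box at 9 bases before it. *Sdpr* held a CCAAT box at 140. Among those not printed, *Ptrf* held a CCAAT box at 63 and a GC box at 7 bases before its first listed start, and *Ehd2* a CCAAT box at 160 and a GC box at 226. *Ehd4*, which was not highest in type R-like cells, held CCAAT boxes at 140, 104 and 38, an ETS match at 98 and a GC box at 20. The 250 bases before the other listed *Cav1* start held none of the motifs. Of 32851 promoters of this length, 33.8% held a CCAAT box, 32.7% a GC box, 29.5% the ETS letters, 4.46% the AP-1 letters and 3.17% the FOX letters.

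Of the cavins, *Ptrf* rose in the caveolin order and *Sdpr* was highest in type R-like but lowest in metaphyseal-like cells, while *Prkcdbp* did neither. *Ptrf* encodes cavin-1, which caveolae need in all tissues, and lies on chromosome 11 from 100956733 to 100970887. It was at 193 ± 30.4 CPM in sinusoidal-like, 308 ± 57.3 in metaphyseal-like, 731 ± 116 in arterial-like and 1649 ± 285 CPM in type R-like cells. Every type R-like library (1022 to 1875 CPM) was above every arterial-like library (536 to 902 CPM), and the log2FC was 1.18 ± 0.06 (adjusted p = 4.58e-19). *Sdpr*, the cavin-2 gene on chromosome 1 (51289126 to 51302960), had another order. Its mean was 477 ± 101 CPM in sinusoidal-like and only 252 ± 50.9 CPM in metaphyseal-like cells (log2FC of metaphyseal-like over sinusoidal-like cells -0.91 ± 0.06, adjusted p = 4.42e-16, short of the 2-fold limit). It was 686 ± 140 CPM in arterial-like and 1805 ± 294 CPM in type R-like cells, a log2FC of 1.40 ± 0.06 between them. Sinusoidal-like cells thus held *Sdpr* at a level (303 to 620.5 CPM) that overlapped with arterial-like libraries (459 to 904 CPM), while their *Cav1* was at most 62.4 CPM.

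*Prkcdbp*, the cavin-3 gene on chromosome 7 (105480083 to 105482300), passed the 2-fold limit between no pair of classes. It was at 707 ± 230 CPM in sinusoidal-like, 1047 ± 221 in metaphyseal-like, 742 ± 182 in arterial-like and 731 ± 204 CPM in type R-like cells. Type R-like and arterial-like cells differed by a log2FC of -0.04 ± 0.09 (adjusted p = 0.808), and type R-like and sinusoidal-like cells by 0.04 ± 0.09 (adjusted p = 0.727). Metaphyseal-like cells were higher than each of the other classes by a smaller step, with a log2FC of 0.61 ± 0.09 over sinusoidal-like cells (adjusted p = 1.93e-07).

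**Figure D1:**
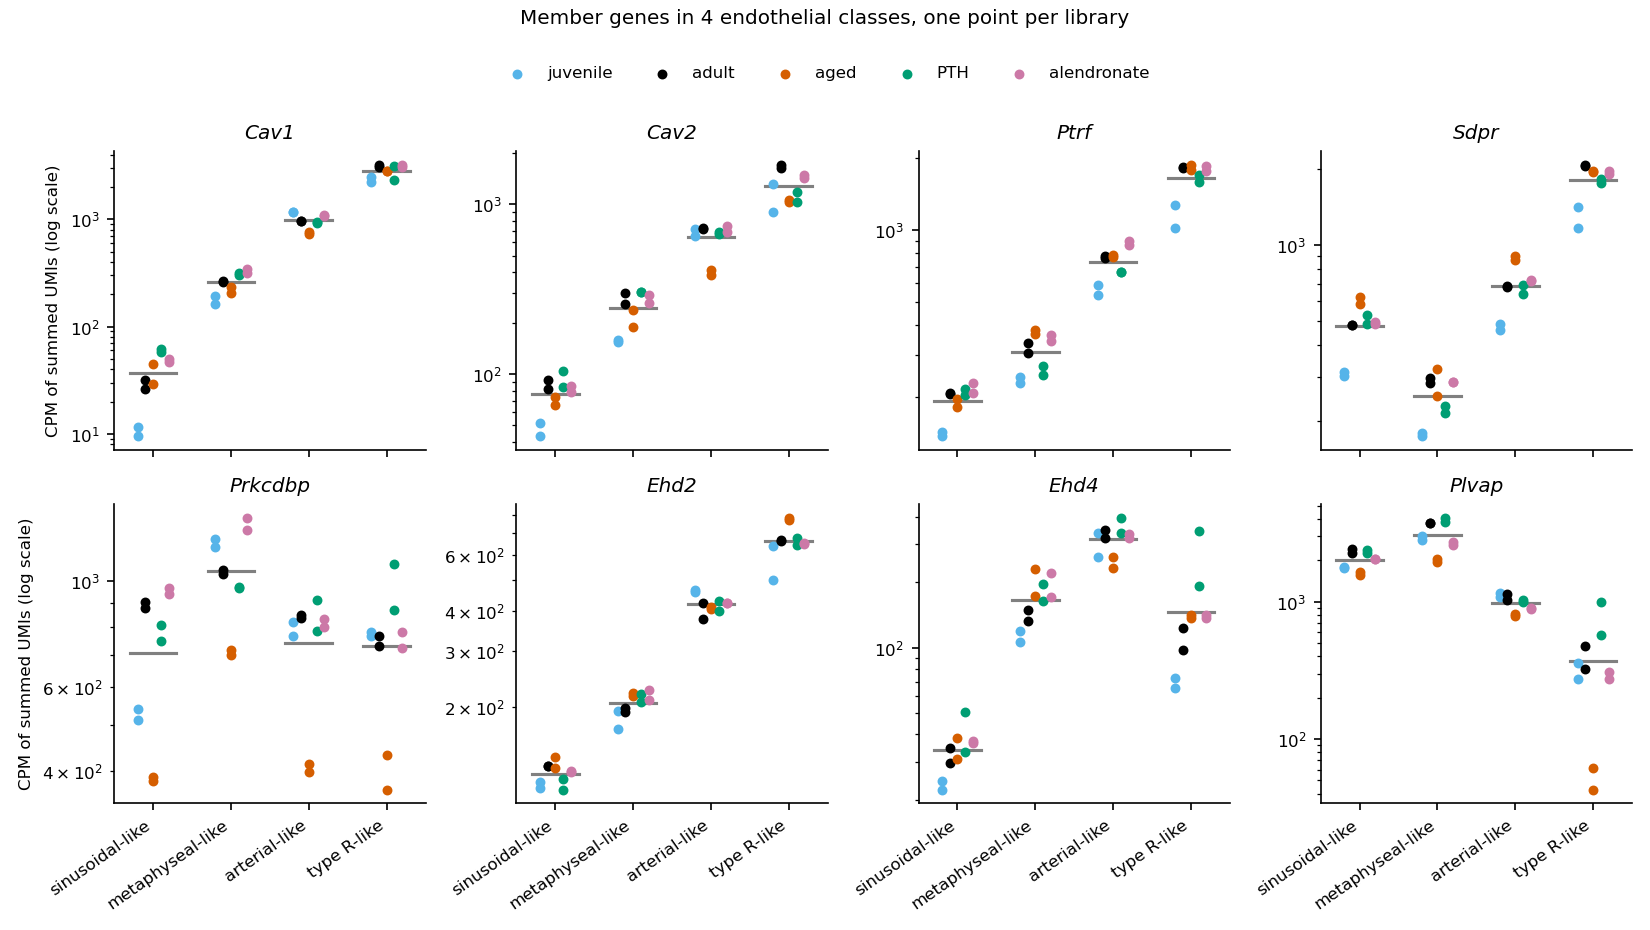
Level of each of the 8 genes (CPM, log axis) in the sinusoidal-like, metaphyseal-like, arterial-like and type R-like cells of each of the 10 libraries, 1 point per library and a bar at the mean. *Cav1*, *Cav2*, *Ptrf* and *Ehd2* climb from left to right, *Prkcdbp* is highest in metaphyseal-like cells, *Ehd4* peaks in arterial-like cells, and *Plvap* falls from 3038 CPM in metaphyseal-like to 369.8 CPM in type R-like cells on average.

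The EHD genes parted company in type R-like cells. *Ehd2*, whose protein sits at the caveolar neck (chromosome 7, 15946958 to 15967567), rose in the caveolin order, from 124 ± 9.2 CPM in sinusoidal-like through 206 ± 17.0 and 422 ± 25.7 to 664 ± 77.2 CPM in type R-like cells. The libraries of successive classes did not overlap. The step from arterial-like to type R-like cells (log2FC 0.67 ± 0.06, adjusted p = 1.16e-12) was under the 2-fold limit. *Ehd4*, a related ATPase that acts in endocytic traffic and at caveolae (chromosome 2, 120089175 to 120154606), was highest in arterial-like cells. It was at 33.8 ± 8.0 CPM in sinusoidal-like, 167 ± 41.0 in metaphyseal-like, 315 ± 48.8 in arterial-like and 145 ± 79.3 CPM in type R-like cells. Type R-like over arterial-like cells gave a log2FC of -1.14 ± 0.12 (adjusted p = 9.55e-11), which shrank below 2-fold under the marker gate, at a clustering resolution of 0.8 and with 15 principal components, to -0.75 at the smallest. In 9 of the 10 libraries *Ehd4* in type R-like cells lay between 65.2 and 193 CPM, and the first PTH library stood apart at 345 CPM.

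*Plvap*, whose product is a structural component of endothelial diaphragms (chromosome 8, 71497765 to 71511752), ran against the caveolins. It was highest in metaphyseal-like cells at 3038 ± 758 CPM (1928, 2901 and 4072), followed by sinusoidal-like cells at 2017 ± 313 CPM (1569, 2039 and 2403). These classes overlapped, with a log2FC of 0.55 ± 0.19 (adjusted p = 9.98e-03). Arterial-like cells held 981 ± 132 CPM (784, 1009 and 1158) and type R-like cells 369.8 ± 274 CPM (42.9, 317 and 1000.4). Type R-like cells were lower than arterial-like cells by a log2FC of -1.68 ± 0.21 (adjusted p = 1.82e-08), lower than sinusoidal-like cells by -2.71 ± 0.22 and lower than metaphyseal-like cells by -3.27 ± 0.22. Arterial-like cells were lower than sinusoidal-like cells by -1.03 ± 0.19 (adjusted p = 8.45e-06), a step that was under 2-fold in 5 alternatives and -0.31 at the smallest. One PTH library (1000.4 CPM) reached the arterial-like range.

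Counted at an adjusted p under 0.05 and a change over 2-fold, 6 of the 8 genes were called between type R-like and arterial-like cells, 4 higher and 2 lower, where 10.3% of the 10386 genes tested were called. Between type R-like and metaphyseal-like cells 6 were called (16.2% of all genes), and between type R-like and sinusoidal-like cells 7 (21.8%). Between arterial-like and metaphyseal-like cells 6 were called (15.8%), and this fell to 2 when cells were gated by marker UMIs and to 2 at a clustering resolution of 0.8. Between arterial-like and sinusoidal-like cells 6 were called (20.6%), and between metaphyseal-like and sinusoidal-like cells 3 (13.2%): *Cav1*, *Cav2* and *Ehd4*.

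Whether a level came from a few cells or from most was read from the share of cells with at least 1 UMI of the gene, after each cell was thinned to 1000 UMIs. Cells with fewer UMIs were left out, 332 of the type R-like and 80 of the sinusoidal-like cells. The 1884 haematopoietic cells of the sort, at a median of 5569.5 UMIs before thinning, were set beside the classes, since free RNA gives UMIs in cells that do not express a gene. *Cav1* was seen in 90.7 ± 4.1% of type R-like, 59.7 ± 6.3% of arterial-like and 20.5 ± 4.5% of metaphyseal-like cells (96.9, 87.3 and 54.0% of all such cells before thinning). In sinusoidal-like cells the share was 3.26 ± 1.65%, against 3.67 ± 1.64% in haematopoietic cells. *Ehd4* was likewise seen in 2.72 ± 0.83% of sinusoidal-like and 5.38 ± 2.18% of haematopoietic cells. Of the 32 pairs of gene and class, these 2 had a mean share at or below the haematopoietic one. Neither share is read as expression. For *Cav1* the level in sinusoidal-like cells was above that in haematopoietic cells in 8 of the 10 libraries, at 62.4 and 58.2 against 43.2 and 35.1 CPM with PTH. The 2 levels use different totals, and sinusoidal-like cells were shallower, at a median of 3978 UMIs. The comparison of levels therefore does not tell expression from free RNA. For *Ehd4* the level in sinusoidal-like cells was above that in haematopoietic cells in 1 of the 10 libraries. Haematopoietic cells held *Ehd4* at 54.3 and 58.1 CPM in the adult libraries, where all ECs held 109.8 and 121 CPM. Whether haematopoietic cells express *Ehd4* themselves was not tested.

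The other genes were seen in a larger share of sinusoidal-like than of haematopoietic cells. *Plvap* was seen in 80.9 ± 3.8% of them, *Prkcdbp* in 43.3 ± 10.5%, *Sdpr* in 33.9 ± 7.7%, *Ptrf* in 15.4 ± 2.5%, *Ehd2* in 10.4 ± 1.5% and *Cav2* in 6.99 ± 1.86%. The haematopoietic shares of these genes were 16.3%, 7.36%, 8.50%, 5.08%, 2.55% and 2.93%. *Plvap* was seen in 20.7 ± 12.7% of type R-like cells, beside a haematopoietic share of 16.3 ± 7.9%, and in 51.0 ± 4.7% of arterial-like cells. Its level in type R-like cells was above that in haematopoietic cells in 9 of the 10 libraries, all but the second aged one. Type R-like cells were shallower, at a median of 2077 against 5569.5 UMIs, and the levels use different totals. This count therefore does not tell expression of *Plvap* from free RNA.

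Most type R-like cells held several coat genes at once. Of *Cav1*, *Cav2*, *Ptrf*, *Sdpr* and *Prkcdbp*, at least 4 were seen in 39.4% (exactly 4) plus 17.7% (all 5) of type R-like cells thinned to 1000 UMIs. In arterial-like cells these shares were 15.3% and 4.06%, in metaphyseal-like cells 2.49% and 0.33%, and in sinusoidal-like cells 0.32% and 0.04%. None of the 5 was seen in 0.12% of type R-like, 3.49% of arterial-like, 16.8% of metaphyseal-like, 30.1% of sinusoidal-like and 79.6% of haematopoietic cells. Cells with and without a *Cav1* UMI were set side by side, with no test. *Plvap* was seen in 50.3 ± 4.6% of arterial-like cells with a *Cav1* UMI and in 52.1 ± 6.5% of those without, and *Ptrf* in 51.2 ± 7.2% and 50.6 ± 6.9%. *Ehd2* was seen in 35.4 ± 3.0% of arterial-like cells with and 28.5 ± 3.6% of those without a *Cav1* UMI. In type R-like cells the shares with a *Cav1* UMI are means over 10 libraries and those without over the 5 libraries with enough such cells, so the libraries and groups behind them differ. *Cav2* was seen in 69.4 ± 9.8% with and 57.2 ± 11.7% without it, *Sdpr* in 78.1 ± 6.5 and 69.0 ± 2.8%, and *Prkcdbp* in 46.1 ± 9.7 and 33.0 ± 13.95%. *Ptrf* was seen in 75.1 ± 6.9 and 74.4 ± 3.5% and *Ehd2* in 48.2 ± 6.1 and 43.1 ± 10.6%, while *Ehd4*, at 12.4 ± 6.9 and 13.8 ± 5.0%, and *Plvap*, at 20.4 ± 13.4 and 24.9 ± 19.9%, went the other way. In metaphyseal-like cells *Cav2* was seen in 26.7 ± 7.0 and 20.6 ± 5.2%, *Ptrf* in 29.0 ± 8.1 and 22.8 ± 3.7%, *Sdpr* in 21.04 ± 8.35 and 21.9 ± 4.7% and *Plvap* in 87.6 ± 7.4 and 91.0 ± 4.9%.

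**Figure D2:**
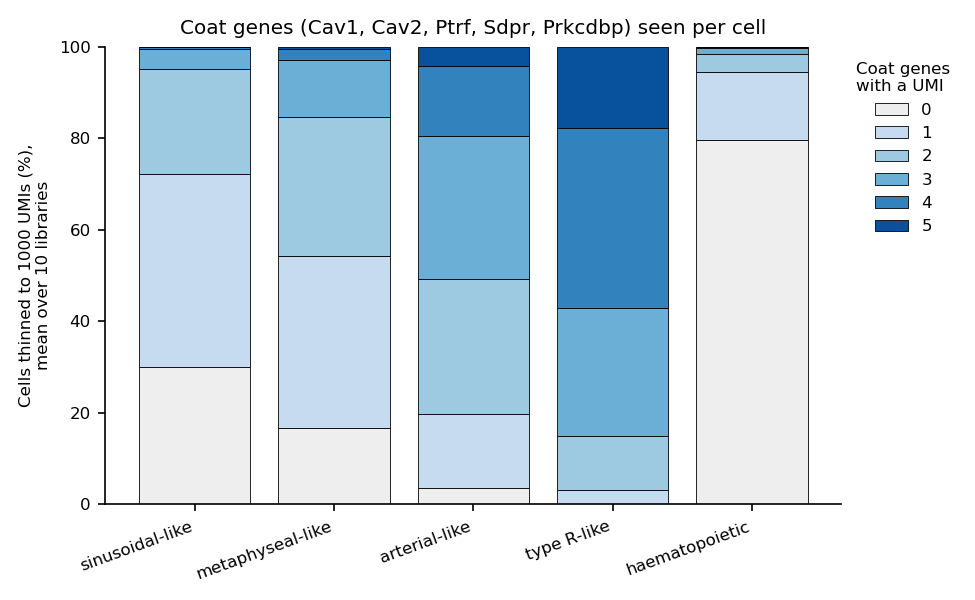
Share of cells (percent, stacked to the whole) with a UMI of 0 to 5 of the coat genes *Cav1*, *Cav2*, *Ptrf*, *Sdpr* and *Prkcdbp*, by class, each cell thinned to 1000 UMIs and averaged over the 10 libraries. All 5 genes are seen in 17.7% of type R-like and 4.06% of arterial-like cells.

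Some unnamed clusters combined these genes in other ways. Levels in the clusters are given as descriptions, in CPM over libraries, without a test. Cluster 9 (1865 cells) was led by *Tagln*, *Vwf* and *Lgals3*, with *Ehd4* and the type R-like marker *Fmo2* also among its 10 leading genes. It held the most *Ehd4* of any cluster, at 1263 ± 173 CPM (969 to 1501). It combined this with *Plvap* at 3684 ± 520, *Cav1* at 1182 ± 119, *Ptrf* at 1060 ± 159 and *Sdpr* at 903 ± 227 CPM. *Cav2* was at 432 ± 67 CPM there, below its mean in the arterial-like and type R-like clusters (646 and 1278 CPM). *Vwf*, the von Willebrand factor gene, was at 1004 ± 311 CPM there. Cluster 2 (4775 cells, led by the type R-like marker *Rbp7*, *Igfbp3* and the arterial-like marker *Gja4*) held *Cav1* at 582 ± 82 and *Plvap* at 2843 ± 694 CPM. Cluster 1 (5046 cells, with *Aplnr* and *Wnt5b* among its leading genes) held *Cav1* at 166 ± 64 and *Plvap* at 2879 ± 603 CPM.

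**Figure D3:**
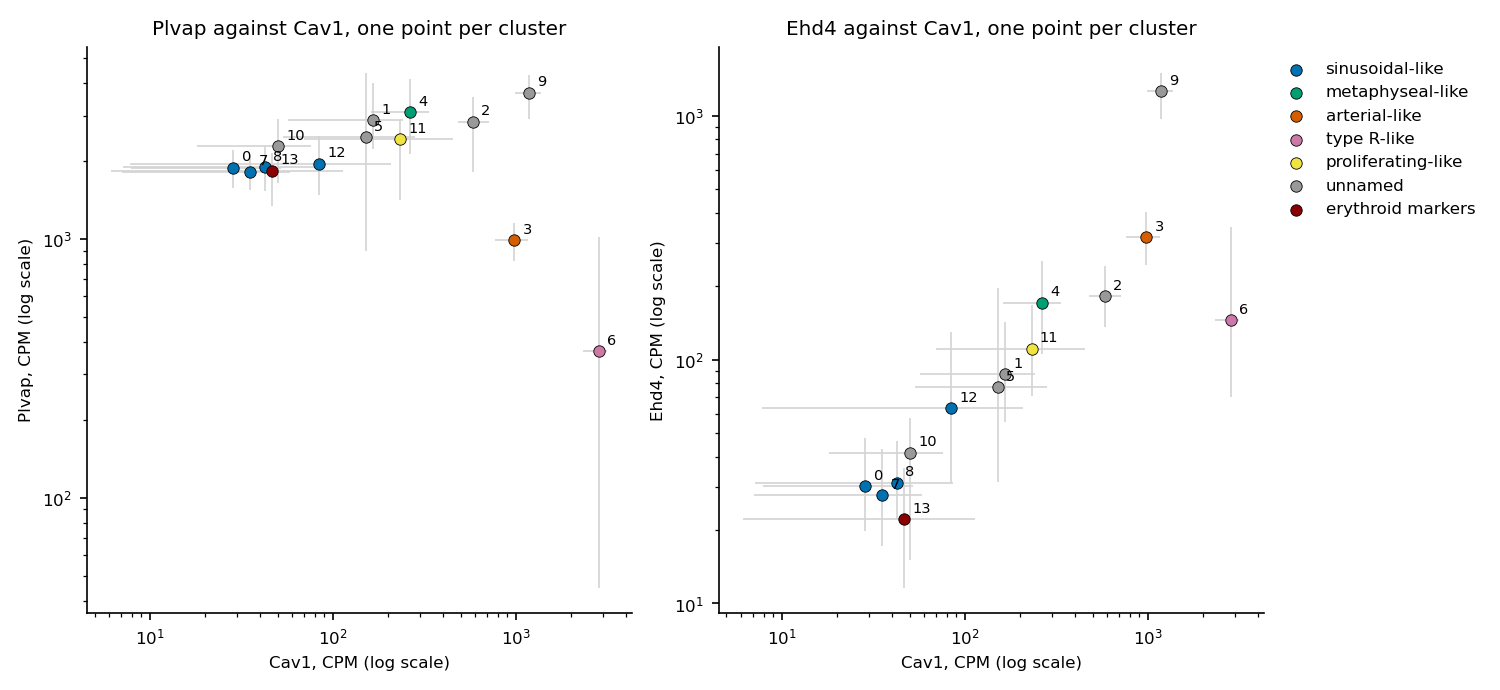
*Plvap* against *Cav1* (left) and *Ehd4* against *Cav1* (right) per cluster, in CPM on log axes, with bars from the lowest to the highest library. Cluster 9 stands high on all 3 genes (*Ehd4* 1263, *Plvap* 3684 and *Cav1* 1182 CPM), away from the type R-like cluster, where *Plvap* averages 369 CPM.

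The wider set of caveola, endocytosis and transcytosis genes moved in both directions. Of its 25 genes, 18 could be tested. *Cav3*, *Murc*, *Pacsin1*, *Pacsin3*, *Dnm1*, *Src* and *Mfsd2a* were too low. Between type R-like and arterial-like cells, where 10.3% of all genes were called, 2 were higher and 2 lower, among the latter *Nostrin*, whose product binds nitric oxide synthase (log2FC -1.77 ± 0.31). The higher pair, named after its values were seen, was *Ehd1*, another EHD gene (1.68 ± 0.10), and *Scarb1*, a lipoprotein receptor gene (1.72 ± 0.13). The median log2FC of the set was -0.28, against -0.01 over all genes. Between type R-like and metaphyseal-like cells (16.2% of all genes called) 3 were higher and 4 lower, with *Nostrin* at -3.70 ± 0.25 and *Ehd1* at 2.72 ± 0.10. Between type R-like and sinusoidal-like cells (21.8%) 6 were higher, led by the dynamin gene *Dnm3* (4.15 ± 0.23), and 2 lower, led by *Ehd3* (-3.60 ± 0.17). Arterial-like cells had 5 higher and 2 lower against metaphyseal-like cells (15.8% of all genes), and 5 higher and 2 lower against sinusoidal-like cells (20.6%). Metaphyseal-like cells had 3 higher and 3 lower against sinusoidal-like cells (13.2%). *Nos3*, the endothelial nitric oxide synthase gene, also named after its values were seen, was higher than in sinusoidal-like cells in each of the other 3 classes, by 1.53 ± 0.08 to 2.56 ± 0.08. *Ehd3*, a further EHD gene, stood at 198 ± 62.9 CPM in sinusoidal-like and 16.4 ± 6.1 CPM in type R-like cells.

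The genes most like *Cav1* were found by Pearson correlation of log2(CPM + 1) over the 40 sums of class and library, among 6683 genes of at least 20 CPM. The sums share libraries and classes, so these values are descriptions. They were *Lims2* (r = 0.985), *Jam2* (0.981), *Pkn3* (0.972), *Ly6c1* (0.971) and *S100a6* (0.968). Among those most like *Plvap* were *Fcer1g* (0.938), *Slc29a1* (0.928), *Emid1* (0.904) and *Cotl1* (0.892). Among the 8 genes, *Cav2* (0.988), *Ehd2* (0.966) and *Ptrf* (0.944) followed *Cav1* closely, *Ehd4* (0.723) and *Sdpr* (0.673) less so. *Prkcdbp* was at 0.04 and *Plvap* at -0.68.

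Next, each group was compared with the adult group within each class. In the juvenile libraries 20 of the 32 pairs of gene and class were called at an adjusted p under 0.05, 18 of them lower. By class, 8 of the 8 genes were called in sinusoidal-like (36.7% of all genes) and 6 in metaphyseal-like cells (17.7%). In arterial-like cells 3 were called (8.08%), and in type R-like cells 3 (2.88%). The sinusoidal-like calls include *Cav1* and *Ehd4*, whose mean shares of cells over all libraries were not above the haematopoietic ones. The cavins *Ptrf* and *Sdpr* fell in all 4 classes. *Ptrf* in type R-like cells was at 1269 and 1022 CPM in the juvenile and 1842 and 1823 CPM in the adult libraries (log2FC -0.57 ± 0.12, adjusted p = 1.29e-03), and it fell by 0.44 to 0.56 on the log2 scale in the other classes. *Sdpr* in type R-like cells was at 1415 and 1163 CPM against 2076 and 2059 CPM (log2FC -0.58 ± 0.12, adjusted p = 6.47e-04), and it fell by 0.53 to 0.72 elsewhere. Juvenile type R-like sums rest on 51 and 34 cells, and the *Ptrf* call there was lost without the second juvenile library (lowest size of the change over the alternatives -0.33).

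*Cav1* differed in direction between the classes. In type R-like cells it was at 2482 and 2239 CPM in the juvenile against 3219 and 3085 CPM in the adult libraries, without overlap, but was not called (log2FC -0.32 ± 0.11, adjusted p = 0.104). In arterial-like cells it was at 1172 and 1162 CPM in the juvenile against 965 and 963 CPM in the adult libraries (log2FC 0.28 ± 0.07, adjusted p = 8.31e-03), a call lost without the first adult library and without either juvenile library. In metaphyseal-like cells it was at 192 and 163 against 265 and 258 CPM (-0.56 ± 0.09, adjusted p = 4.66e-06), and without integration of the libraries this turned to 0.13. In sinusoidal-like cells it was at 11.5 and 9.48 against 26.2 and 31.9 CPM (-1.46 ± 0.15). Haematopoietic cells held 8.46 and 13.5 CPM in juvenile and 14.2 and 26.8 CPM in adult libraries, and their part in the result was not tested. These levels rest on only 7 and 9 UMIs in juvenile and 27 and 49 UMIs in adult libraries. Without integration, where the class held 28 and 29 juvenile cells, the sinusoidal-like value turned to 0.47. *Plvap* fell in sinusoidal-like cells, from 2271 and 2403 CPM in adult to 1755 and 1803 CPM in juvenile libraries (-0.39 ± 0.03, adjusted p = 5.53e-11), and in metaphyseal-like cells (-0.36 ± 0.06). *Prkcdbp* fell in sinusoidal-like cells (-0.76 ± 0.04) and rose in metaphyseal-like cells (0.20 ± 0.06), the latter a call lost without either adult library and without the first juvenile library. *Cav2* fell in all classes but the arterial-like one, where it stood at 718 and 654 CPM against 729 and 719 CPM.

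In the aged libraries 21 of the 32 pairs were called, 16 lower and 5 higher. By class, 5 were in sinusoidal-like, 6 in metaphyseal-like, 6 in arterial-like and 4 in type R-like cells. Here 62.3% of all genes were called in sinusoidal-like, 53.6% in metaphyseal-like, 53.2% in arterial-like and 46.5% in type R-like cells, so that the members' share of calls was near the background. *Prkcdbp*, *Plvap* and *Cav2* fell in all 4 classes. *Prkcdbp* was at 388 and 382 CPM in aged and 905 and 878 CPM in adult sinusoidal-like cells (log2FC -1.35 ± 0.05, adjusted p = 2.91e-22), and it fell by 0.59 to 1.08 on the log2 scale in the other classes. Haematopoietic cells held *Prkcdbp* at 27.9 and 17.2 CPM in aged and 83.3 and 68.5 CPM in adult libraries, and their part in the result was not tested. The sinusoidal-like class held clusters 0, 12 and 7 at 77.3, 10.1 and 5.49% of its aged and 63.7, 3.10 and 19.6% of its adult cells, and the part of this in its results was not tested. *Plvap* in type R-like cells was at 61.3 and 42.9 CPM against 326 and 473 CPM (-2.89 ± 0.19, adjusted p = 3.27e-19), and it fell by 0.46 to 0.93 elsewhere, although in arterial-like cells it turned to 0.16 without integration. The share of aged type R-like cells with a *Plvap* UMI was 4.16%, below the 4.72% of aged haematopoietic cells, so that at this depth *Plvap* was not told apart from free RNA there, and the haematopoietic share itself was 18.1% in the adult group. The level in haematopoietic cells also differed, at 49.5 and 48.8 CPM in aged and 192 and 263 CPM in adult libraries. The 7 erythroid markers summed to 2823 CPM in the type R-like cells of the first aged library and to 0 to 855 CPM in the other 9 libraries, and their part in the result was not tested. *Cav2* fell most in arterial-like cells, to 414 and 384 CPM from 729 and 719 CPM (-0.88 ± 0.07, adjusted p = 7.09e-13).

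*Cav1* fell with age in arterial-like and metaphyseal-like cells and was not called in the other classes. *Cav1* in type R-like cells was at 2834 and 2812 CPM in aged and 3219 and 3085 CPM in adult libraries (log2FC -0.13, not called), and in arterial-like cells at 766 and 728 against 965 and 963 CPM (-0.39 ± 0.06, adjusted p = 2.57e-06). The metaphyseal-like call (-0.29 ± 0.09, adjusted p = 1.00e-02) was lost without the second aged library, under the marker gate, at resolution 0.8 and with DESeq2, and turned to 0.031 with 15 principal components and 0.037 at resolution 0.3. *Sdpr* was higher in aged arterial-like cells, at 867 and 904 against 686 and 681 CPM (0.35 ± 0.06, adjusted p = 2.04e-05), and turned to -0.16 without integration. *Ehd4* moved in opposite directions, down in arterial-like (-0.46 ± 0.09) and up in metaphyseal-like cells (0.48 ± 0.13), the latter lost without the second aged library. *Ptrf* in type R-like cells stood at 1875 and 1775 against 1842 and 1823 CPM.

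With PTH 8 of the 32 pairs were called, 3 higher and 5 lower. By class, 2 were in sinusoidal-like (8.49% of all genes called) and 2 in metaphyseal-like cells (6.72%). In arterial-like cells 1 was called (5.13%), and in type R-like cells 3 (2.85%). The count of 8 fell to 4 when cells were gated by marker UMIs and to 5 without the filter on low counts. *Plvap* in type R-like cells was at 1000.4 and 577 CPM with PTH and 326 and 473 CPM in adult libraries, without overlap (log2FC 0.86 ± 0.16, adjusted p = 2.10e-04). *Ehd4* in these cells was at 345 and 193 CPM against 124 and 97.9 CPM (1.04 ± 0.20, adjusted p = 3.75e-04). The first PTH library was the farther from the adult libraries for both genes, and it held 41 type R-like cells. Both calls were lost under the marker gate, without integration and without the low-count filter. From the lower to the higher library, the share of type R-like cells with a *Plvap* UMI was 32.6 to 46.3% with PTH and 20.2 to 21.9% in adult. The share of haematopoietic cells went from 18.1% in adult to 26.1% in PTH libraries. The adult type R-like share was thus near the haematopoietic one, and the part of free RNA in the result was not tested. The level in haematopoietic cells overlapped between the groups, at 237 and 195 CPM with PTH and 192 and 263 CPM in adult libraries. The 7 type R-like markers summed to 3941 and 4634 CPM in the type R-like cells of the PTH libraries against 6156 and 6203 CPM in adult, and the 7 metaphyseal-like markers to 2956 and 3335 against 2323 and 2706 CPM. The metaphyseal-like list includes *Aplnr*, which the study found in type R as well as metaphyseal ECs. The part of these marker sums in the result was not tested.

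*Cav2* in type R-like cells was lower with PTH, at 1040 and 1178 CPM against 1714 and 1634 CPM (log2FC -0.56 ± 0.10, adjusted p = 2.38e-04), whereas *Cav1* stood at 2295 and 3101 against 3219 and 3085 CPM. The lower sum of the type R-like markers in these cells applies to this result too, and its part was not tested. *Ptrf* and *Sdpr* fell in metaphyseal-like cells (-0.30 ± 0.08 and -0.38 ± 0.08). The *Ptrf* call there was lost without the second adult or the first PTH library, and the *Sdpr* call without the first adult library. *Ptrf* fell also in arterial-like cells (-0.22 ± 0.07, adjusted p = 3.63e-02), a call lost in 9 alternatives, among them those without any 1 of the adult, PTH or alendronate libraries. *Cav1* in sinusoidal-like cells rose from 26.2 and 31.9 to 62.4 and 58.2 CPM (1.02 ± 0.12, adjusted p = 8.65e-08). The share of these cells with a *Cav1* UMI was 5.08% with PTH and 2.39% in adult libraries, against 4.42 and 3.67% of haematopoietic cells. The level in haematopoietic cells was 43.2 and 35.1 CPM with PTH against 14.2 and 26.8 CPM in adult libraries, without overlap, and its part in the result was not tested.

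With alendronate 7 of the 32 pairs were called, 4 higher and 3 lower. By class, 2 were in sinusoidal-like (17% of all genes called) and 4 in metaphyseal-like cells (8.46%). In arterial-like cells 1 was called (4.52%), and in type R-like cells 0 (2.59%). The count of 7 became 4 without the second adult library and 12 with 15 principal components. None of the 8 genes was called in type R-like cells, where *Cav1* stood at 3220 and 3055 CPM against 3219 and 3085 CPM in adult libraries (log2FC -0.03). The adult libraries serve both treatments as controls. *Plvap* was called lower in the other 3 classes, and was lower without a call in type R-like cells (log2FC -0.46 ± 0.15, adjusted p = 0.0959). In metaphyseal-like cells it was at 2703 and 2570 CPM against 3716 and 3728 CPM (-0.50 ± 0.06, adjusted p = 1.34e-08), in arterial-like cells it fell by 0.29 and in sinusoidal-like cells by 0.20 on the log2 scale. Metaphyseal-like cells also held more *Cav1* (0.33 ± 0.08), *Ehd4* (0.48 ± 0.12) and *Prkcdbp* (0.34 ± 0.06, adjusted p = 7.52e-05). The calls of *Cav1* and *Ehd4* there were lost without the second adult or the first alendronate library, and the arterial-like *Plvap* call without the second adult or second alendronate library. *Cav1* in sinusoidal-like cells rose to 46.9 and 49.9 CPM (0.73 ± 0.11), at a share of 4.38% of cells against 4.43% of haematopoietic cells. Haematopoietic cells held 38.6 and 35.9 CPM with alendronate against the 14.2 and 26.8 CPM of the adult libraries, and their part in the result was not tested.

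**Figure D4:**
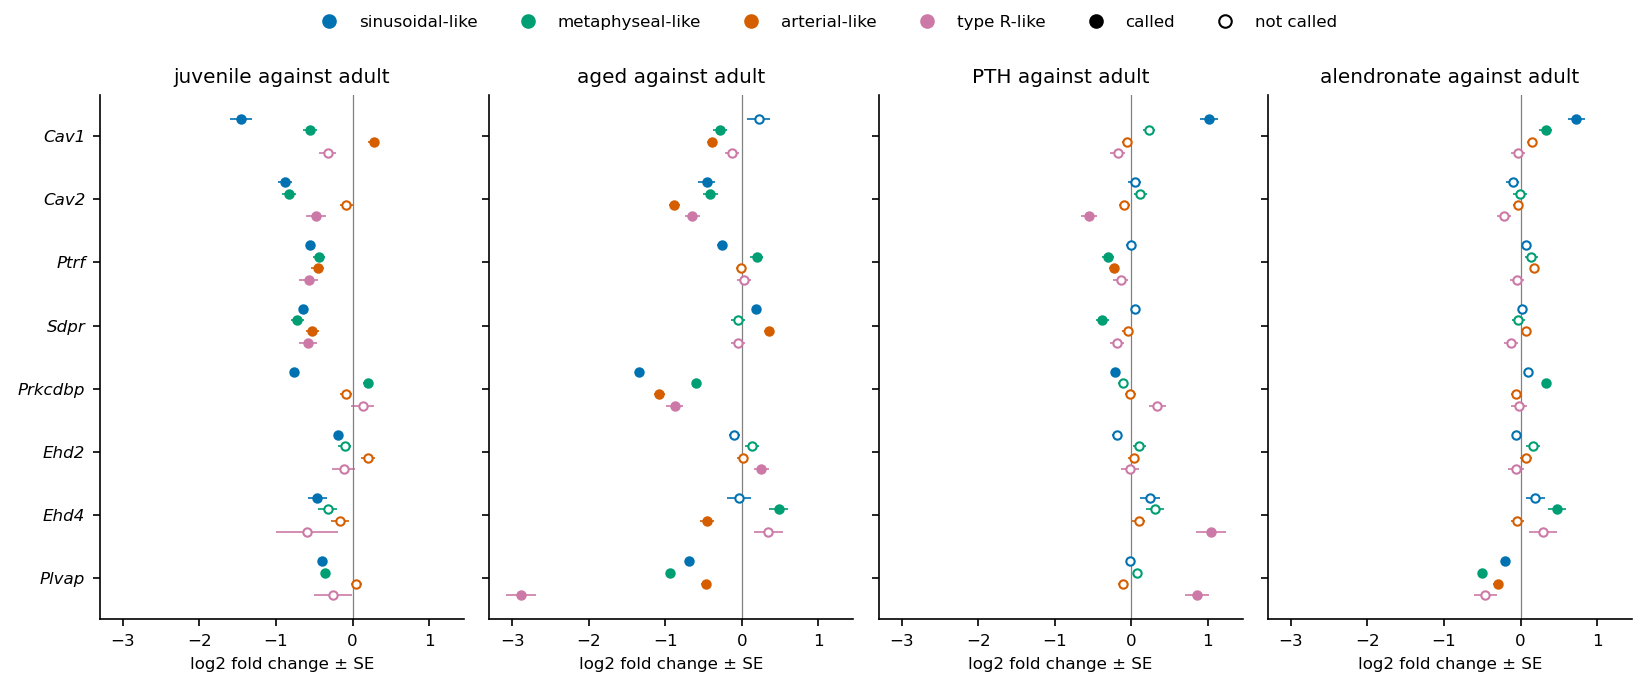
log2 fold change (± standard error) of each gene in juvenile, aged, PTH and alendronate libraries against adult libraries within each class, filled where the adjusted p was under 0.05. *Ptrf* and *Sdpr* lie below 0 in all 4 classes of juvenile libraries, and *Plvap* in type R-like cells runs from -2.89 (aged, where its share of cells was not above that of haematopoietic cells) to 0.86 (PTH).

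**Figure D5:**
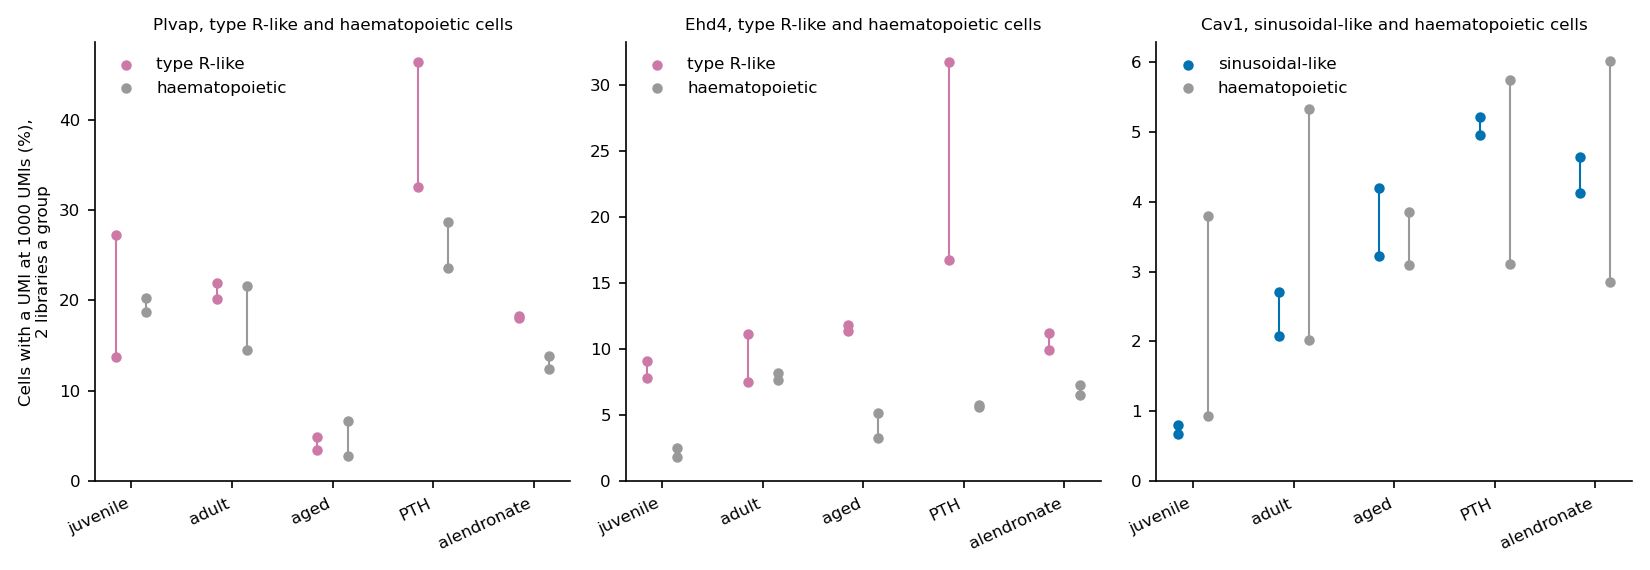
Share of cells (percent, thinned to 1000 UMIs) with a UMI of *Plvap* or *Ehd4* in type R-like cells and of *Cav1* in sinusoidal-like cells, beside the share in haematopoietic cells, with 2 libraries per group as points. *Plvap* in aged type R-like cells (4.16%) is at its haematopoietic share, and *Cav1* in sinusoidal-like cells is at or below it in 3 of the 5 groups.

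Whether an effect differed between classes was tested as an interaction over the 4 classes in all libraries. The effect of juvenile age differed between classes for 4 of the 8 genes (8.17% of the 12006 genes tested) and that of aged for 7 (17.2%). That of PTH differed for 6 (3.96%) and that of alendronate for 2 (3.79%). For *Ptrf* and *Sdpr*, which fell in every juvenile class, no difference between classes was found (adjusted p = 0.596 and 0.793), and *Ehd2* was not called in any of the 4 tests. The PTH count fell to 3 when cells were gated by marker UMIs, and the alendronate count was 0 without the first adult library and 1 without integration.

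Over all ECs of a library *Cav1* was at 140 ± 1.3 CPM in juvenile, 300.2 ± 10.7 in adult, 615 ± 1.7 in aged, 473 ± 54.6 with PTH and 582 ± 2.0 CPM with alendronate (n = 2 each), a spread that also holds the differing shares of the classes. *Plvap* over all ECs was at 2089 ± 77.2, 2503 ± 52.6, 1627 ± 20.7, 2920 ± 45.4 and 1933 ± 7.8 CPM in the same order.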

How the data were processed

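The deposited values were UMI counts per gene and cell, 1 table per library, made by the authors from droplet reads with UMI-tools 1.1.2, STAR 2.7.10a and featureCounts 2.0.3 (the submitters' processing notes and methods), on the mm10 mouse genome. The annotation and the strand setting are not given in the sources used here, so reads of overlapping or antisense genes cannot be told apart. Samples were grouped by the labels. The 8 genes, the gene lists and the comparisons were chosen with earlier results of these data known.

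Of 47466 barcodes, 46283 with 500 to 6000 genes and under 25% mitochondrial UMIs were kept. Libraries shared at most 88 barcodes. Libraries were integrated and clustered in Seurat 5.3.0 (CCA, 2000 variable features without the 8 genes, the wider set and cell-cycle genes, 30 principal components, resolution 0.5), and a cluster was named only from marker lists. Doublets were left in. Scrublet's own threshold marked too few to have worked. Leaving out the cells of highest Scrublet score, at 0.8% per 1000 cells, was an alternative that rests on the same scores. UMIs were summed per class and library (at least 20 cells) and tested with edgeR 4.0.16 (TMM, quasi-likelihood, Benjamini-Hochberg adjustment over all genes tested), between classes with library as a block and called past 2-fold, within classes against adult, and as interactions. The scripts were tested on simulated data. Named genes were the 8, in each comparison the pair of called wider-set genes with the largest change, and the 5 genes most correlated with *Cav1* and *Plvap*; some named by this rule are not reported here, and other names in the wider set and the clusters were chosen after their values were seen. Libraries of a group differed beyond sampling noise (chi-square per degree of freedom 1.79 to 2.78). Shares were averaged over libraries, and intervals and floors would cover counting error only. Alternatives were 2 other resolutions, 15 principal components, no integration, a marker gate, a stricter cell filter, doublets out, at least 50 cells, RLE factors, no low-count filter, DESeq2 1.42.0, a replicate block, thinning to 2000 UMIs, each library left out, and, chosen after seeing the data, all aged libraries left out. Sequences came from RefSeq (GRCm38.p6) and gene positions from GENCODE (GRCm38).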

Additional observations from a re-analysis of the deposited data

Results flagged for a closer look

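These results were flagged because the effect of a group against adult differed between the 4 classes by an interaction test (edgeR quasi-likelihood, adjusted over 12006 genes); no explanation was weighed. For juvenile libraries they were *Cav1* (adjusted p = 1.34e-15; log2FC from -1.46 in sinusoidal-like, where it turned to 0.47 without integration, to 0.28 in arterial-like cells), *Cav2* (3.66e-07; -0.88 in sinusoidal-like to -0.08 in arterial-like cells), *Plvap* (6.10e-03) and *Prkcdbp* (7.04e-20; -0.76 in sinusoidal-like to 0.20 in metaphyseal-like cells). The *Plvap* result was lost without the first adult or first juvenile library. For aged libraries they were *Cav1* (3.25e-03), *Cav2* (8.35e-04), *Ehd4* (1.01e-07; -0.46 in arterial-like to 0.48 in metaphyseal-like cells), *Plvap* (7.99e-21; -2.89 in type R-like to -0.46 in arterial-like cells), *Prkcdbp* (1.76e-09; -1.35 to -0.59), *Ptrf* (4.98e-02) and *Sdpr* (1.53e-05). The *Ptrf* result was lost in 16 of its 20 alternatives, among them those without any 1 library other than the first PTH library, and the *Cav1* result without the first adult or first aged library.

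For PTH they were *Cav1* (6.58e-11; 1.02 in sinusoidal-like to -0.18 in type R-like cells), *Cav2* (1.43e-05), *Ehd4* (6.89e-03; 1.04 in type R-like cells), *Plvap* (2.94e-05; 0.86 in type R-like to -0.11 in arterial-like cells), *Prkcdbp* (7.13e-04) and *Sdpr* (7.24e-03). *Ehd4* was lost without the second adult or first PTH library, and *Sdpr* without either adult or without the first PTH library. For alendronate they were *Cav1* (1.35e-04; 0.73 in sinusoidal-like to -0.03 in type R-like cells), lost without the first adult library, and *Prkcdbp* (5.61e-03), lost without the first adult library or either alendronate library. The sinusoidal-like *Cav1* values behind the juvenile, PTH and alendronate results are at shares of cells near those of haematopoietic cells. The *Cav1* level of haematopoietic cells was 8.46 and 13.5 CPM in juvenile (only 7 and 9 UMIs) and 14.2 and 26.8 CPM in adult libraries. It was 43.2 and 35.1 CPM with PTH and 38.6 and 35.9 CPM with alendronate. The aged type R-like *Plvap* value is at a share of 4.16% of cells against 4.72% of haematopoietic cells, whose *Plvap* level was 49.5 and 48.8 CPM in aged and 192 and 263 CPM in adult libraries. The part of free RNA in these results was not tested. Each group has 2 libraries of pooled mice, and the 4 tests share the adult libraries.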

How the results depend on the processing

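Between classes, 50 of the 60 changes of the 8 genes and the named wider-set genes kept their direction and their side of the limits in all alternatives, against 70 of 128 within classes and 13 of 32 interactions. The calls between arterial-like and metaphyseal-like cells fell from 6 to 2 under the marker gate and to 2 at resolution 0.8 (5 to 6 with 1 library left out). Within classes, the juvenile count went from 20 to 13 without integration (16 to 21 with 1 library left out), where the sinusoidal-like class held 28 and 29 juvenile cells. The PTH count went from 8 to 4 under the gate and 5 without the low-count filter (6 to 9), and the alendronate count from 7 to 12 with 15 principal components, 11 under the gate and 11 at resolution 0.3 (4 to 9, the lowest without the second adult library). The PTH interaction count went from 6 to 3 under the gate (4 to 6), and the alendronate interaction count from 2 to 4 with at least 50 cells, 5 under the gate and 1 without integration (0 to 4). Without the aged libraries the within-class counts were 20 for juvenile, 8 for PTH and 7 for alendronate.

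Directions reversed for *Cav1* in metaphyseal-like cells, aged (0.031 with 15 principal components and 0.037 at resolution 0.3) and juvenile (0.13 without integration), *Cav1* in sinusoidal-like cells, juvenile (0.47 without integration), *Ehd2* (-0.43), *Plvap* (0.16) and *Sdpr* (-0.16) in arterial-like cells, aged, without integration, *Ptrf* in metaphyseal-like cells, aged (-0.042 at resolution 0.3 and -0.038 at resolution 0.8), and *Sdpr* in metaphyseal-like cells, alendronate (0.50 under the gate). The cause was not tested. Same-numbered libraries did not deviate together (correlations -0.02 to 0.04 over 10 pairs of groups), so the numbers do not pair them; a fit with the replicate block lost 0 calls and gained 2, with counts of 21 for aged, 7 for alendronate, 21 for juvenile and 9 for PTH. The type R-like sums rest on 34 to 700 cells per library.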

Other observations

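At 1000 UMIs per cell *Plvap* was seen in 86.7 ± 7.4% of proliferating-like cells, *Prkcdbp* in 58.3 ± 11.1%, *Ptrf* in 22.1 ± 5.4%, *Sdpr* in 21.3 ± 5.3%, *Cav2* in 18.5 ± 4.6%, *Cav1* in 11.7 ± 5.0%, *Ehd2* in 15.6 ± 5.2% and *Ehd4* in 9.59 ± 3.18%, against 90.4, 59.3, 24.2, 21.5, 21.9, 20.5, 17.97 and 14.7% of metaphyseal-like cells. The difference was not tested. Cluster 10, an unnamed cluster of 1080 cells led by Ptx3 and Ctgf, held *Plvap* at 2294 ± 370, *Prkcdbp* at 893 ± 227, *Sdpr* at 540 ± 216 and *Cav1* at 50.5 ± 19 CPM.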
